A study of Mus musculus with 8 samples.

Results

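The genes described here are 42 genes of DNA replication and nucleotide supply, taken by their symbols from a table of 52459 gene symbols. They were measured by RNA sequencing of lung tumour nodules from mixed-background mice engineered to form such tumours, in 4 groups of 2 libraries. The groups were JQ1 given together with the anti-PD-1 antibody (the combination), JQ1 alone, anti-PD-1 alone, and vehicle, and every group, vehicle included, carried the same model. JQ1 is a small molecule that occupies the acetyl-lysine pocket of BET proteins, and the antibody blocks PD-1, a receptor that restrains T cells. The design sets each single treatment and their combination against vehicle. The alleles, the Cre driver, the ages of the mice, the doses and the length of treatment are not stated in the labels. Of the 42 genes, 41 had enough counts to be tested, beside 14085 tested genes in all; Cdc6 had too few counts to be tested and is given by its values alone.

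Replication starts in G1, when the origin recognition complex, CDC6 and CDT1 load the MCM2-7 hexamer onto DNA, a step called licensing that geminin blocks once S phase has begun. In S phase CDC45 and the GINS complex turn MCM2-7 into the moving helicase, RPA coats the single strands, primase and the polymerases copy them, and RFC loads the PCNA clamp that holds the polymerases in place. Ribonucleotide reductase, thymidylate synthase, thymidine kinase and dUTPase supply or clean the deoxynucleotide pool, while CAF-1 and UHRF1 restore nucleosomes and DNA methylation behind the fork. Most of these genes are E2F targets that are transcribed in cycling cells, so in tissue they are widely read as proliferation genes.

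Promoter sequence was compared because E2F sites are a shared feature of these genes that the choice of genes did not use. RefSeq windows on GRCm38.p6, running from 250 bases before to 50 bases after a start, were found for 34 of the 42 genes. They were searched on both strands for TTTCCCGC, TTTCGCGC, TTTGCCGC and TTTGGCGC, words of the E2F motif that can overlap one another. A word was present for 13 of 34 genes (38.2%), against 451 of 9963 tested genes with a window (4.53%) and 704 of 27025 of all genes with a window (2.6%). The 13 were Orc1, Cdc6, Cdt1, Mcm3, Mcm5, Mcm6, Mcm7, Gins3, Rfc3, Pola1, Pold1, Lig1 and Uhrf1, with 5 of 8 among the helicase genes and 0 of 5 among the nucleotide genes. The 170 bases directly before the start are shown for the only genes called in any comparison, Mcm2 and Orc6, which hold no such word in their windows, and for Cdc6, Mcm5 and Mcm6, which hold 1, 2 and 3. Capitals mark the matches, 5′ to 3′ on the strand of the gene. Starts are those of RefSeq. The Cdc6 stretch lies inside the gene as placed by GENCODE, the annotation used for exons (chr11:98907801-98923940).
Orc6 (chr8:85299462-85299631, plus strand): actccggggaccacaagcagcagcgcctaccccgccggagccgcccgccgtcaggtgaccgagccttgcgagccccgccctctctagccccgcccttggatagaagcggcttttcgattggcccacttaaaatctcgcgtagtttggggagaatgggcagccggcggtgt
Mcm2 (chr6:88898781-88898950, minus strand): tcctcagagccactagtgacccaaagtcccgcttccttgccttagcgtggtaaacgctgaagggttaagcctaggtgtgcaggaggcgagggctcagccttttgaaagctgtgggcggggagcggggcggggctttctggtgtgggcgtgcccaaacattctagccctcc
Cdc6 (chr11:98907981-98908150, plus strand): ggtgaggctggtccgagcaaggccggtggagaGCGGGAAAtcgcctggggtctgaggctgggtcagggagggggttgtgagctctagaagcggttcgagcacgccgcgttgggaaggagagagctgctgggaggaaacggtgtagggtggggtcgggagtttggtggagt
Mcm5 (chr8:75109339-75109508, plus strand): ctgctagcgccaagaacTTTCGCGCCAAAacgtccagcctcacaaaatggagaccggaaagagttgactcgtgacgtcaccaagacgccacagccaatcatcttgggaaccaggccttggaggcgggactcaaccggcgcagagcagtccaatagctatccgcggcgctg
Mcm6 (chr1:128359706-128359875, minus strand): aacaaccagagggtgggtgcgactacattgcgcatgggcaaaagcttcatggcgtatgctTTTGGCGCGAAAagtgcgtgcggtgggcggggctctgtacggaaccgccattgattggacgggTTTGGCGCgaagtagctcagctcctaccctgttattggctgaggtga
The pair of matches in Mcm5 overlaps, as does the first pair in Mcm6. In the combination against vehicle, 10 of 12 tested genes with a word and 11 of 21 without one had a negative log2 fold change, with medians of −1.06 and −0.48. For JQ1 against vehicle 3 and 6 were negative, with medians of 0.52 and 0.44. For JQ1 over both backgrounds 7 and 9 were negative, with medians of −0.16 and 0.26. Of the 13 genes with a word 5 are helicase genes, so the split overlaps the functional groups. This is a description of the windows and no measure of binding.

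Depth and content differed between libraries. The shallowest library, combination replicate 1, held 2719816 counts and the deepest, vehicle replicate 2, held 15224108, so 1 read was worth 0.421 CPM (the usual counts-per-M scale, here on TMM-scaled library sizes) in the shallowest library and 0.0574 CPM in the deepest. The 42 genes together held 498 and 1249 counts in the combination libraries and between 2844 and 6431 in the other libraries. Ribosomal RNA took 49.2% ± 4.62 of counts in the combination, 31.3% ± 5.19 with JQ1, 23.8% ± 0.457 with anti-PD-1 and 22.8% ± 1.32 in vehicle (SD, n = 2 each), and with this share as a term at most 3 of all tested genes were called in any contrast. Every call named below, of replication genes and of the other lists, was lost in that fit, and some genes of the other lists changed direction. Share and treatment cannot be told apart there. The 10 tumour epithelium markers were all detected in every library and summed to between 5984 and 10620 CPM. Among them Nkx2-1, a lineage factor of lung epithelium, fell to 842 and 402 CPM in the combination, against 2124 and 1733 CPM in vehicle (log2 fold change −1.63 ± 0.34, adjusted p = 0.0327 by edgeR), and for JQ1 over both backgrounds Cdh1 and Epcam were called higher and Nkx2-1 and Cldn18 lower. By Xist and Y-linked counts, the combination, JQ1 and anti-PD-1 groups each held 1 female and 1 male library, and both vehicle libraries were male.

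In the combination, the replication genes together were at 0.6 of their vehicle level, with the 6 genes of the MCM hexamer at 0.328 and the other 36 genes at 0.783, and the functional groups differed in direction. Summed over all 42 genes, the level was 209.6 and 205.8 CPM in the combination, 474.5 and 283 CPM with JQ1, 412.2 and 267.1 CPM with anti-PD-1, and 323.3 and 369 CPM in vehicle. Both combination libraries lay below all the others, and the JQ1 and anti-PD-1 groups each spread around the vehicle values. The helicase genes summed to 59.8 ± 2.32 CPM in the combination and 161 ± 13.8 CPM in vehicle, and the nucleotide genes to 21.5 ± 4.09 CPM and 47.7 ± 10.3 CPM. Polymerase and primase genes summed to 24.0 ± 7.66 CPM in the combination and 39.2 ± 4.32 CPM in vehicle. The origin recognition and licensing genes went the other way, with 32.4 ± 5.28 CPM in the combination and 19.1 ± 3.06 CPM in vehicle (SD, n = 2 each). In bulk tissue, fewer cells of a type and less RNA per cell cannot be told apart.

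**Figure D1:**
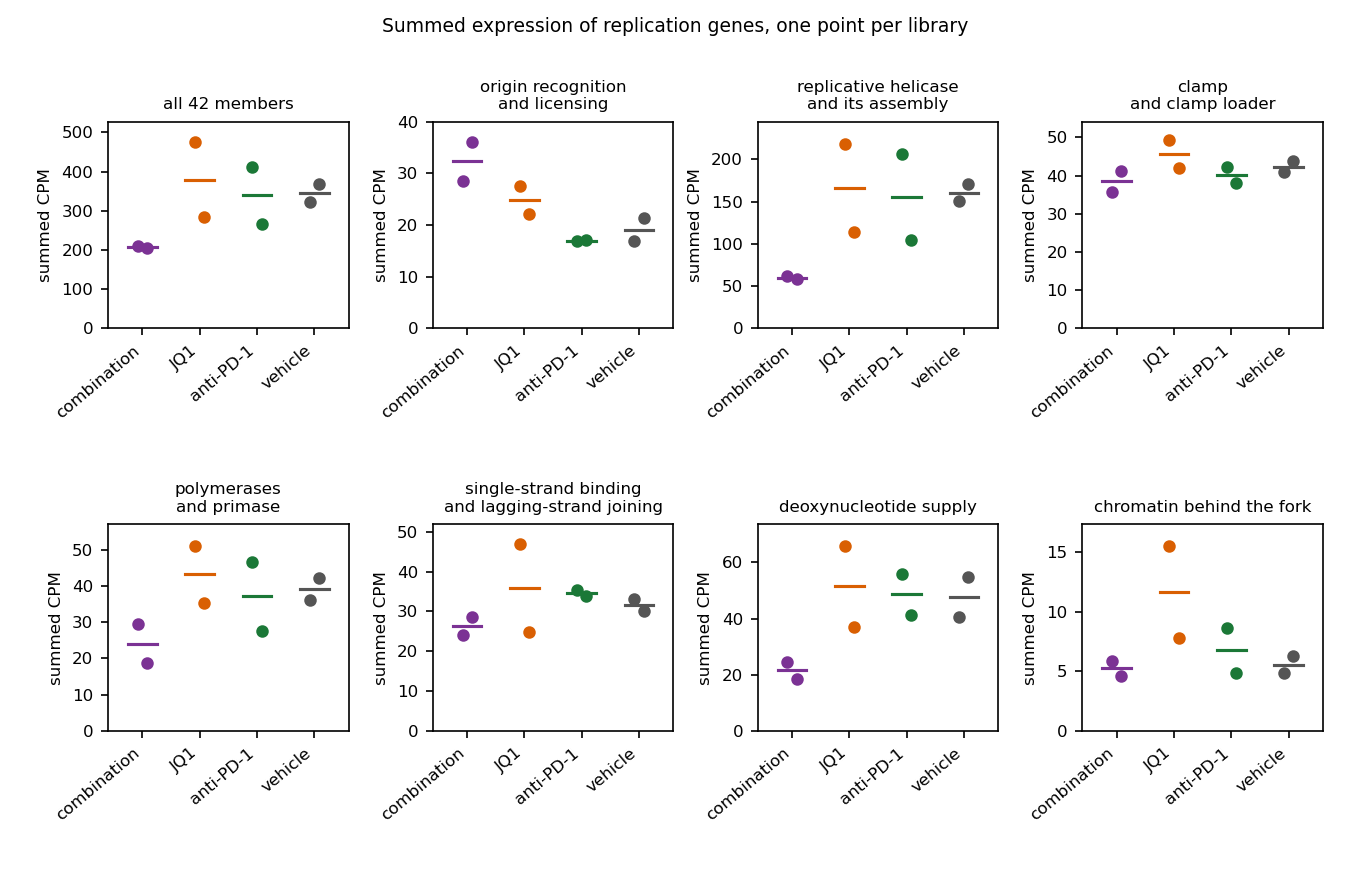
Summed CPM (vertical axis) of all 42 genes and of each functional group in the combination, JQ1, anti-PD-1 and vehicle groups, with 1 point per library and a bar at the mean of 2. Both combination libraries lie lowest for the helicase and nucleotide genes and highest for the licensing genes.

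Few single genes passed the test. By the quasi-likelihood test of edgeR, with p-values adjusted by Benjamini-Hochberg over all tested genes, 1 of 41 genes was called lower in the combination than in vehicle, beside 2.36% of all tested genes, and 1 of 41 higher, beside 2.44%. These shares are at the background. At an unadjusted p under 0.05, 12 of 41 genes were lower, beside 13.1% of all tested genes, and 4 were higher, beside 14.2%. The median log2 fold change of the 41 genes was −0.74, beside 0.07 for all tested genes, with 27 negative and 14 positive. Both combination libraries lay below both vehicle libraries for 19 of 41 genes (46.3%), beside 29.1% of all tested genes, and above them for 7 of 41 (17.1%), beside 29.5%. Both lay below all 6 other libraries for 14 of 41 genes (34.1%), beside 12.8% of all tested genes, and above all 6 for 5 of 41 (12.2%), beside 12.5%.

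**Figure D2:**
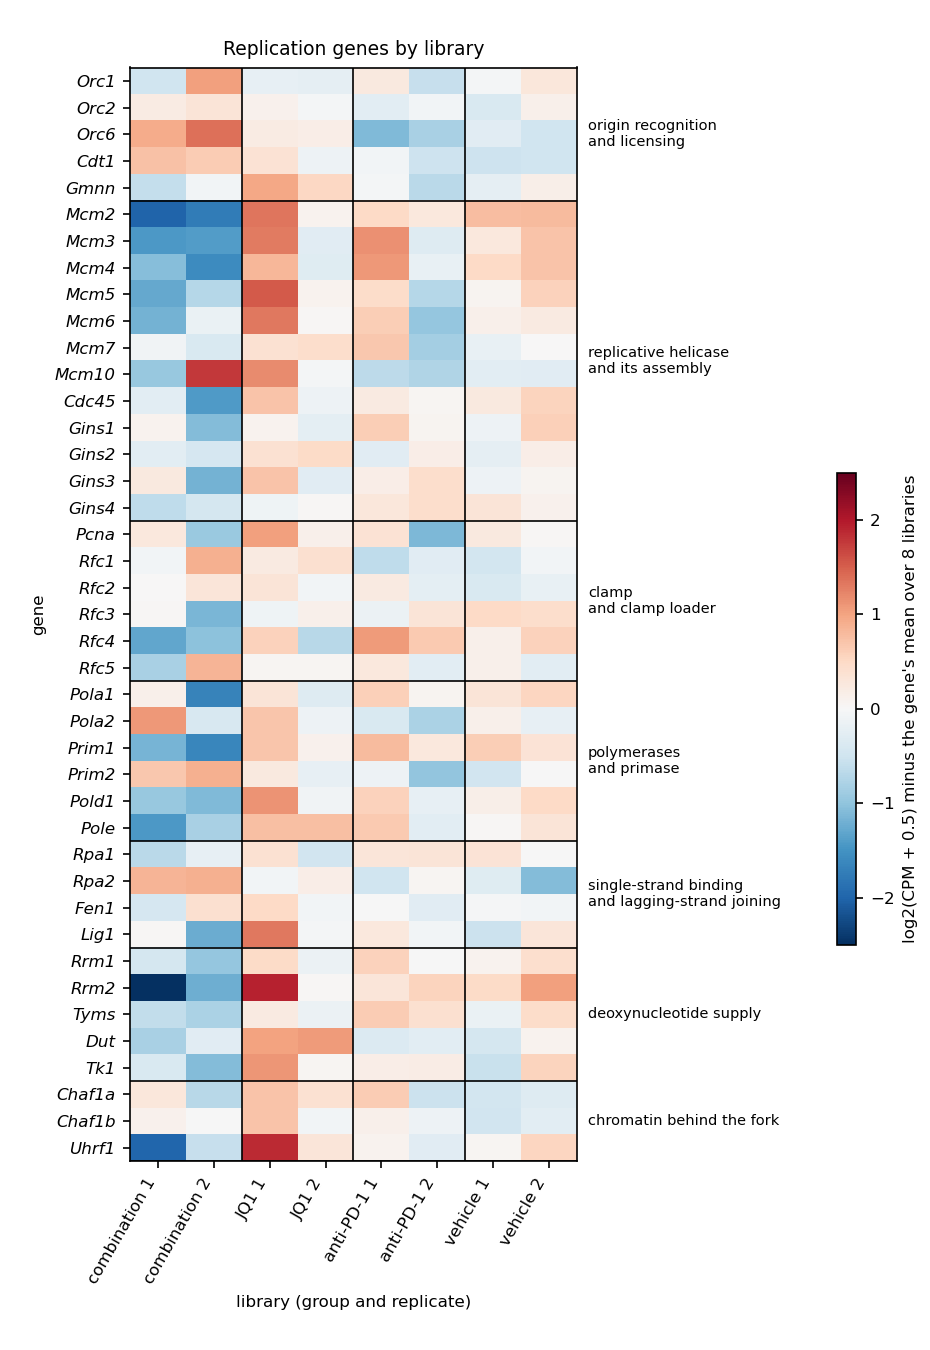
Each of the 41 tested genes (rows, by functional group) in each library (columns), as log2(CPM + 0.5) minus the mean of the gene over the 8 libraries. The combination columns are blue for most helicase, polymerase and nucleotide genes and red for Orc6, Cdt1, Prim2 and Rpa2, and the column of JQ1 replicate 1 is red for most genes.

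Of the licensing genes 4 of 5 tested were positive in the combination against vehicle, with a median log2 fold change of 0.63, and 1 passed the test. Orc6, the smallest subunit of the origin recognition complex, rose in the combination. It stood at 9.26 and 12.9 CPM in the combination, 5.45 and 5.23 CPM with JQ1, 1.89 and 2.44 CPM with anti-PD-1, and 3.74 and 3.16 CPM in vehicle. All 4 libraries given JQ1 lay above all 4 without it. The log2 fold change of Orc6 against vehicle was 1.70 ± 0.40 (SE, n = 2 each, adjusted p = 0.0419 by edgeR's quasi-likelihood test). Its exons overlap those of Vps35 on the opposite strand by 171 bases (GRCm38, Orc6 at chr8:85299632-85308278), and Vps35 was at 125 ± 7.36 CPM in the combination and 192 ± 2.02 CPM in vehicle, a difference in the other direction. When single libraries were left out, the value lay between 1.40 and 1.89. Those fits leave a group with 1 library, so no call is read from them. The call is not stable in other settings. With ribosomal RNA share as a term, Orc6 was at 0.60 (adjusted p = 0.935), with a sex term at 1.71 (0.0640). With only the libraries compared it was at 1.69 (0.0648).

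Cdt1, which brings the MCM hexamer to origins, had 3.37 and 3.13 CPM in the combination, 2.52 and 1.66 CPM with JQ1, 1.75 and 1.13 CPM with anti-PD-1, and 1.15 and 1.15 CPM in vehicle. Both combination libraries were above the other libraries, and the log2 fold change against vehicle was 1.49 ± 0.57 (adjusted p = 0.133). Cdc6, the ATPase that loads the hexamer with CDT1, was counted 0 and 4 times in the combination, 25 and 8 times with JQ1, 7 and 5 times with anti-PD-1, and 9 and 11 times in vehicle. A count of 0 in combination replicate 1 allows up to 1.26 CPM, above its level in both vehicle libraries (0.687 and 0.631 CPM), so a difference was not detectable at this depth. Orc1, Orc2 and Gmnn, which encodes the licensing inhibitor geminin, had log2 fold changes of 0.63, 0.39 and −0.35 against vehicle, and none passed the test.

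Of 12 tested helicase genes 11 were negative against vehicle, with a median log2 fold change of −1.09, and only Mcm2 passed the test. The 6 hexamer genes Mcm2 to Mcm7 summed to 45.5 ± 4.04 CPM in the combination, 145 ± 70.5 CPM with JQ1, 133 ± 72.8 CPM with anti-PD-1 and 139 ± 13.2 CPM in vehicle. Mcm2 fell to 3.79 and 4.61 CPM in the combination, against 28.9 and 29.0 CPM in vehicle, while it had 42.6 and 17.7 CPM with JQ1 and 23.6 and 20.2 CPM with anti-PD-1. Each combination library was below every other library, while the JQ1 libraries stood on both sides of vehicle and of anti-PD-1. The log2 fold change of Mcm2 against vehicle was −2.76 ± 0.45 (SE, n = 2 each, adjusted p = 0.0210 by edgeR's quasi-likelihood test). No exon of Mcm2 (GRCm38, chr6:88883474-88898780, minus strand) overlaps another annotated gene. The value lay between −2.96 and −2.65 when single libraries were left out. Those fits leave a group with 1 library, so no call is read from them. With ribosomal RNA share as a term the value was −6.20 and the call was lost (adjusted p = 0.373).

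The other hexamer genes, whose products form a ring with MCM2 in equal number, did not all stand as far from vehicle. Mcm4 had 21.5 and 14.8 CPM in the combination, 80.6 and 36.8 CPM with JQ1, 97.0 and 39.7 CPM with anti-PD-1, and 64.2 and 74.1 CPM in vehicle, a log2 fold change against vehicle of −1.95 ± 0.50 (adjusted p = 0.0553). Mcm3 had 3.37 and 3.46 CPM in the combination, 25.4 and 8.11 CPM with JQ1, 22.6 and 7.89 CPM with anti-PD-1, and 12.1 and 16.7 CPM in vehicle, at −2.07 ± 0.68 (adjusted p = 0.0934). Mcm5 and Mcm6 were at −1.54 and −0.75. Mcm7 showed the smallest difference of the hexamer, with 16.8 and 13.5 CPM in the combination, 23.5 and 24.4 CPM with JQ1, 28.7 and 9.67 CPM with anti-PD-1, and 15.6 and 17.8 CPM in vehicle. Its log2 fold change of −0.15 ± 0.46 was within the spread between libraries. The Mcm7 exons also hold the microRNAs Mir25 and Mir93 and overlap Ap4m1 and Cops6 on the opposite strand, so its counts are less certain.

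**Figure D3:**
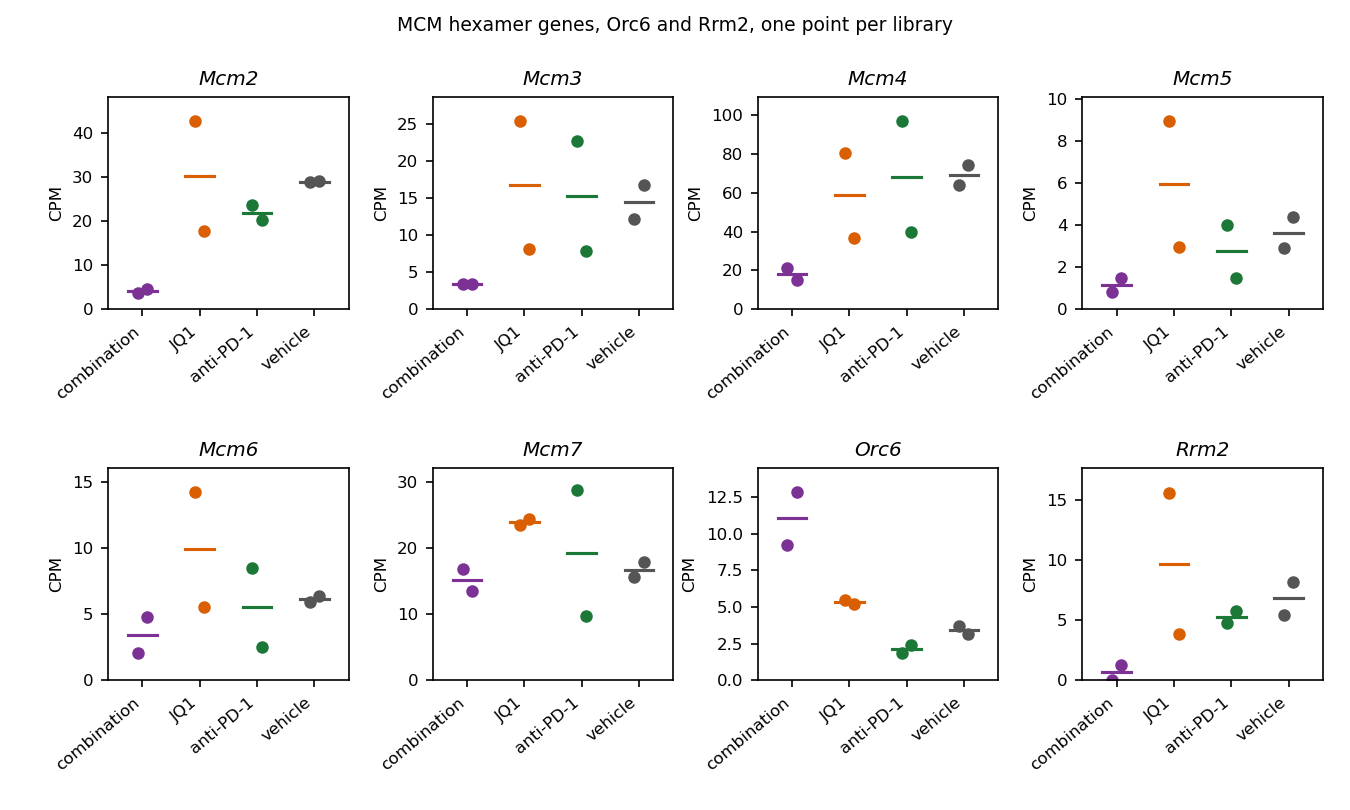
CPM (vertical axis) of Mcm2 to Mcm7, Orc6 and Rrm2 in the 4 groups, 1 point per library and a bar at the mean of 2. Mcm2, Mcm3, Mcm4, Mcm5 and Rrm2 are lowest in both combination libraries, Mcm7 overlaps between groups, and Orc6 is highest in the combination.

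Genes that activate the helicase varied. Cdc45, its essential partner, had a log2 fold change against vehicle of −1.61 ± 0.66 (adjusted p = 0.153), and Gins4, a subunit of the GINS complex, one of −0.77 ± 0.34 (adjusted p = 0.170), with both combination libraries of each below all others. Gins1 was at −1.05 ± 0.71. Gins2 and Gins3 held 3 and 2 counts over both combination libraries and 19 each in vehicle; the vehicle level divided by the combination level was 1.75 (95% interval 0.516 to 9.24) for Gins2 and 2.63 (0.634 to 23.3) for Gins3, intervals that cover counting error only. Mcm10, a helicase activation factor and the 1 positive gene of this group, had 0.421 and 5.60 CPM in the combination, 3.57 and 1.22 CPM with JQ1, 0.629 and 0.563 CPM with anti-PD-1, and 0.993 and 0.975 CPM in vehicle, and the combination libraries stood on both sides of vehicle.

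The clamp and its loader were divided, with 3 of 6 genes positive and a median log2 fold change of −0.01 against vehicle, and none called. Pcna, the sliding clamp, had 5.89 and 2.31 CPM in the combination, 10.4 and 5.32 CPM with JQ1, 6.43 and 1.97 CPM with anti-PD-1, and 5.88 and 4.99 CPM in vehicle. Its range within a group was as wide as any difference between groups. Rfc4, a small subunit of the loader, had 1.26 and 1.65 CPM in the combination, 5.98 and 2.18 CPM with JQ1, 8.66 and 6.39 CPM with anti-PD-1, and 4.28 and 6.02 CPM in vehicle (log2 fold change −1.77 ± 0.60, adjusted p = 0.0997). The large subunit gene Rfc1 stood at 9.68 and 19.5 CPM in the combination, 12.1 and 13.6 CPM with JQ1, 6.43 and 8.36 CPM with anti-PD-1, and 7.26 and 9.70 CPM in vehicle (0.81 ± 0.40, adjusted p = 0.220). Rfc3, another small subunit, had 11.4 and 4.78 CPM in the combination, 10.3 and 12.3 CPM with JQ1, 10.1 and 14.1 CPM with anti-PD-1, and 15.96 and 15.4 CPM in vehicle (−1.03 ± 0.44, adjusted p = 0.163). Rfc2 and Rfc5 were at 0.49 and 0.49. Thus the subunits of 1 complex lay on both sides of 0, none of them past the test.

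Primase showed its subunits in opposite directions in the combination. Prim1, the catalytic subunit, was counted 1 and 1 times in the combination and 35 and 37 times in vehicle. It had 0.421 and 0.165 CPM in the combination, 2.83 and 1.74 CPM with JQ1, 3.07 and 1.97 CPM with anti-PD-1, and 2.67 and 2.12 CPM in vehicle. The vehicle level divided by the combination level was 9.96 (95% interval 2.66 to 83.8), and the adjusted p by edgeR's quasi-likelihood test was 0.0516, just over the threshold. Prim2, the regulatory subunit, had 5.89 and 6.92 CPM in the combination, 4.20 and 2.96 CPM with JQ1, 3.14 and 1.502 CPM with anti-PD-1, and 2.37 and 3.44 CPM in vehicle (log2 fold change 1.14 ± 0.50, adjusted p = 0.172). Both combination libraries were below the others for Prim1 and above them for Prim2.

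The leading strand polymerase gene Pole had 2.95 and 4.78 CPM in the combination, 15.2 and 15.1 CPM with JQ1, 14.04 and 7.23 CPM with anti-PD-1, and 8.94 and 11.1 CPM in vehicle (log2 fold change −1.32 ± 0.45, adjusted p = 0.0974). Pold1, of the lagging strand polymerase, was at −1.59 ± 0.59 (adjusted p = 0.123). Pola1 and Pola2, of the polymerase that extends primers, were at −1.09 and 0.53. Among genes of single-strand binding and lagging-strand joining, the median was −0.21 and none was called. Rpa1, the large RPA subunit, had 10.9 and 15.5 CPM in the combination, 23.3 and 12.6 CPM with JQ1, 22.3 and 22.5 CPM with anti-PD-1, and 22.9 and 17.8 CPM in vehicle (−0.60 ± 0.37). Its partner Rpa2 had 3.79 and 3.96 CPM in the combination, 1.78 and 2.18 CPM with JQ1, 1.19 and 1.97 CPM with anti-PD-1, and 1.45 and 0.631 CPM in vehicle (1.91 ± 0.61, adjusted p = 0.0877). Fen1, the flap nuclease, and Lig1, the ligase that joins Okazaki fragments, were at 0.16 and −0.59.

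All 5 nucleotide supply genes were negative in the combination against vehicle, with a median log2 fold change of −1.06, and none passed the test over all genes. Rrm2, the regulated small subunit of ribonucleotide reductase, had 0 and 1.32 CPM in the combination, 15.5 and 3.84 CPM with JQ1, 4.75 and 5.73 CPM with anti-PD-1, and 5.42 and 8.21 CPM in vehicle. The combination libraries did not overlap any other group, and the log2 fold change was −2.96 ± 0.90 (adjusted p = 0.0799). Rrm1, the large subunit, had 21.0 and 14.3 CPM in the combination, 40.1 and 26.0 CPM with JQ1, 43.3 and 28.4 CPM with anti-PD-1, and 30.6 and 38.5 CPM in vehicle (−0.99 ± 0.36, adjusted p = 0.120). Tyms, thymidylate synthase, had 2.10 and 1.81 CPM in the combination, 4.20 and 3.14 CPM with JQ1, 5.73 and 4.79 CPM with anti-PD-1, and 3.06 and 4.99 CPM in vehicle (−1.06 ± 0.50, adjusted p = 0.200). For Rrm1 and Tyms, too, both combination libraries were the lowest of the 8. Tk1, thymidine kinase, had 0.842 and 0.330 CPM in the combination, 3.25 and 1.31 CPM with JQ1, 1.47 and 1.502 CPM with anti-PD-1, and 0.687 and 2.07 CPM in vehicle, which overlapped the combination. Dut, which encodes dUTPase, was at −0.48 ± 0.75.

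Chromatin genes behind the fork showed no shared direction. Uhrf1, which brings maintenance methylation to new DNA, had 0 and 0.824 CPM in the combination, 6.71 and 1.92 CPM with JQ1, 1.61 and 1.13 CPM with anti-PD-1, and 1.53 and 2.35 CPM in vehicle (log2 fold change −1.81 ± 0.95, adjusted p = 0.239). Its count of 0 in combination replicate 1 allows up to 1.26 CPM, above anti-PD-1 replicate 2. Uhrf1 is 1 of the 14 genes counted as below all other libraries, which is thus not certain for it. Chaf1a, the large CAF-1 subunit, had 3.37 and 1.48 CPM in the combination, 4.72 and 3.66 CPM with JQ1, 4.47 and 1.69 CPM with anti-PD-1, and 1.83 and 2.07 CPM in vehicle. Chaf1b, its partner, had 2.53 and 2.31 CPM in the combination, 4.09 and 2.18 CPM with JQ1, 2.58 and 2.07 CPM with anti-PD-1, and 1.53 and 1.84 CPM in vehicle. The log2 fold changes of Chaf1a and Chaf1b against vehicle were 0.20 ± 0.65 and 0.50 ± 0.56. Long stretches of the Chaf1a exons overlap Ubxn6 on the opposite strand, so reads of the pair may not be separable.

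JQ1 alone left no replication gene past the test. edgeR's quasi-likelihood test called 0 of 41 in either direction, beside 0% of all tested genes. DESeq2 and limma voom also called 0 of 41, where they called 0.568% and 0.0071% of all tested genes in either direction. At an unadjusted p under 0.05, 1 gene was higher, beside 5.62% of all tested genes, and 0 were lower, beside 4.52%. The 1 gene was Dut, with 2.73 and 2.88 CPM with JQ1 and 0.687 and 1.20 CPM in vehicle (log2 fold change 1.54 ± 0.61, adjusted p = 0.452). The median log2 fold change was 0.45, beside 0.07 for all tested genes, with 29 genes positive. Both JQ1 libraries lay above both vehicle libraries for 13 of 41 genes (31.7%), beside 26.3% of all tested genes, and below them for 4 (9.76%), beside 22.9%. The positive median rested on 1 library. JQ1 replicate 1 was the highest of the 8 libraries for 19 of 41 genes and above JQ1 replicate 2 for 34 of 41, and without it the median was −0.10. Mcm2 and Orc6 were at 0.06 ± 0.39 and 0.63 ± 0.39 with JQ1 alone.

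Anti-PD-1 alone likewise left 0 of 41 genes called by edgeR's quasi-likelihood test in either direction, beside 0% of all tested genes. DESeq2 and limma voom called 0 of 41, beside 0.0781% and 0% of all tested genes in either direction. At an unadjusted p under 0.05 by edgeR there were 0 as well, where 1.19% of all tested genes were higher and 0.788% lower. The libraries did not overlap vehicle for 3 of 41 genes that were higher, beside 14.4% of all tested genes, and 6 that were lower, beside 16%. The median log2 fold change was −0.06, with 19 genes positive and 22 negative, and single genes ran between −0.71 for Mcm10 and 0.67 for Chaf1a. Its libraries also differed from each other, with replicate 1 above replicate 2 for 29 of 41 genes.

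**Figure D4:**
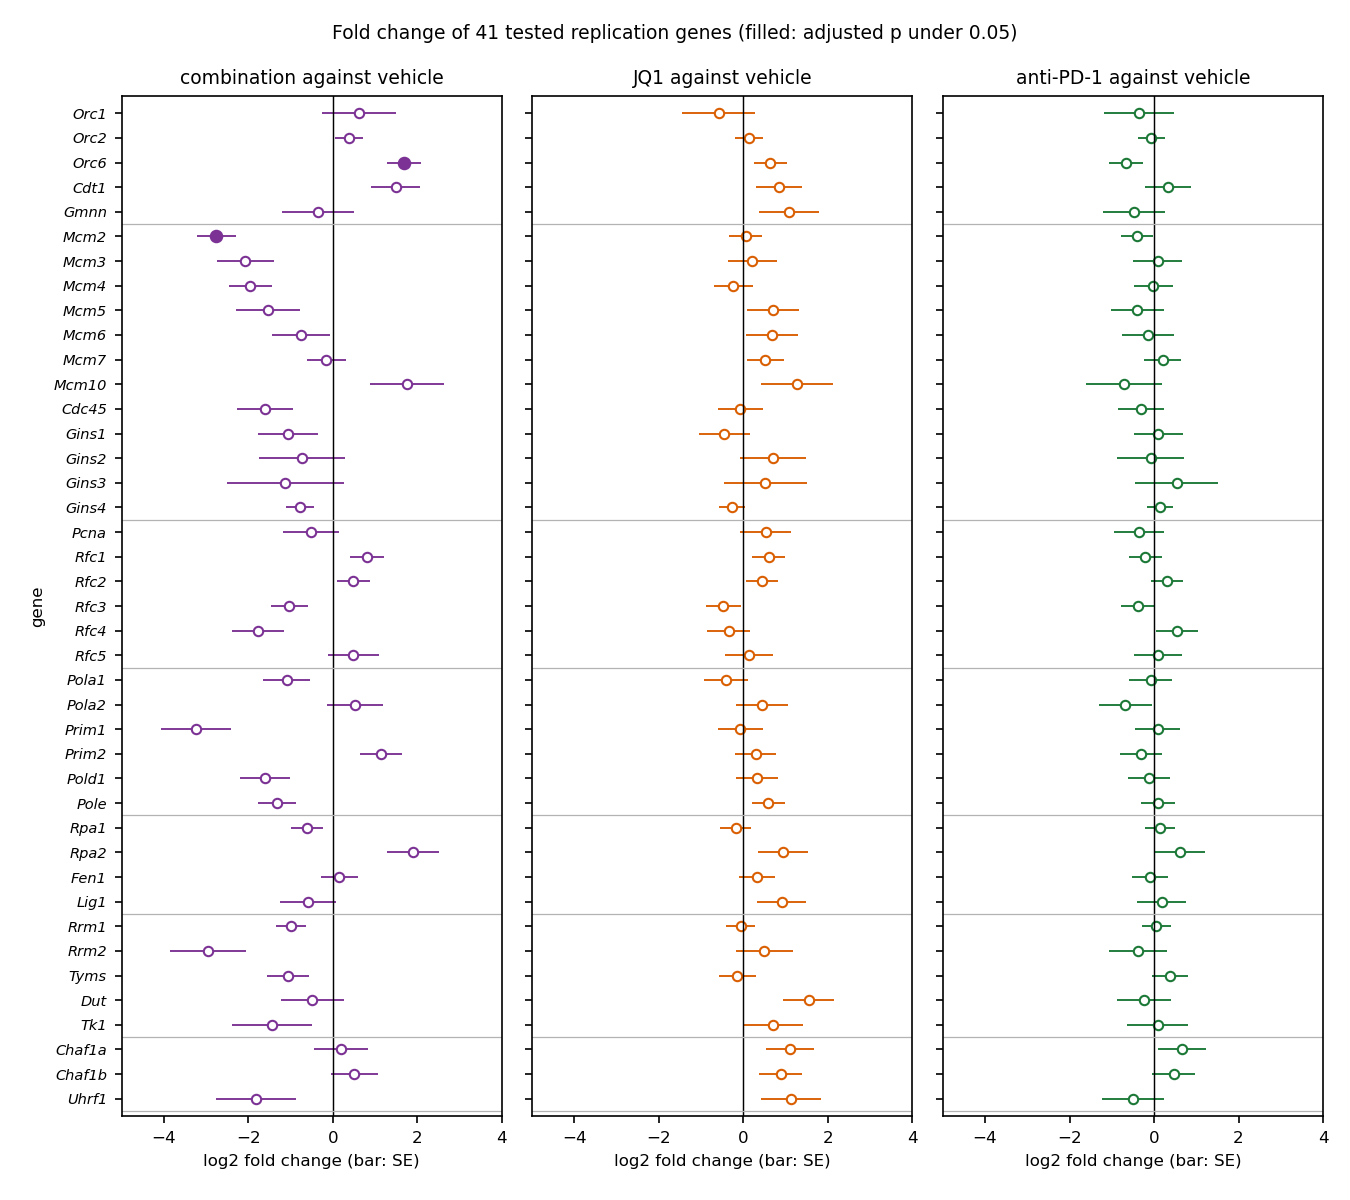
Log2 fold change against vehicle (horizontal axis, bar: SE) of the 41 tested genes in the combination, with JQ1 and with anti-PD-1, n = 2 libraries per group, filled where adjusted p was under 0.05. Filled points appear in the combination alone, at Orc6 and Mcm2, and most anti-PD-1 values lie near 0.

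Of the contrasts between single groups, the combination against JQ1 had the most genes lower without overlap between libraries, and no call. Both combination libraries lay below both JQ1 libraries for 21 of 41 genes (51.2%), beside 21.3% of all tested genes, and above for 5 (12.2%), beside 19.7%. edgeR's quasi-likelihood test called 0 of 41 lower, beside 0.0071% of all tested genes, and 0 higher, beside 0.0142%, while 15 genes were lower, beside 7.3%, and 1 higher, beside 6.81%, at an unadjusted p under 0.05. DESeq2 called 5 lower, where it called 2.9% of all tested genes in either direction, and limma voom 0, where it called 0.0355%. The smallest adjusted p was 0.0901 for Mcm2 (log2 fold change −2.81 ± 0.46), and the median was −0.92. This comparison shares the combination libraries with the one against vehicle, so it is no independent support for it.

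Against anti-PD-1, the combination again had Orc6 higher (log2 fold change 2.37 ± 0.42, adjusted p = 0.0274 by edgeR) and Mcm2 lower (−2.35 ± 0.45, adjusted p = 0.0335), 1 of 41 genes each way beside 2.15% of all tested genes called higher and 2.08% lower. When single libraries were left out, the values lay between 2.07 and 2.57 for Orc6 and between −2.56 and −2.25 for Mcm2. The Mcm2 call was lost by limma voom (adjusted p = 0.0545). Both calls were lost with only the libraries compared (adjusted p = 0.0684 for Orc6 and 0.0522 for Mcm2). At an unadjusted p under 0.05, 4 genes were higher, beside 14% of all tested genes, and 11 lower, beside 13%. Libraries did not overlap for 16 of 41 genes that were lower (39%), beside 26.8% of all tested genes, and 6 that were higher (14.6%), beside 27.9%. Averaged over both backgrounds, that is the combination and JQ1 against anti-PD-1 and vehicle, Orc6 rose by 1.5 ± 0.29 (adjusted p = 0.0226) and Mcm2 fell by 1.15 on the log2 scale (SE 0.30, adjusted p = 0.0433), beside 4.22% of all tested genes called higher and 4.05% lower. With single libraries left out, the averages lay between 1.35 and 1.60 for Orc6 and between −1.55 and −0.91 for Mcm2. The Mcm2 call was lost with a sex term (adjusted p = 0.0522) or limma voom (0.0518). For Mcm2 this average joins a value near 0 for JQ1 alone with a large one under the antibody, and the JQ1 and vehicle libraries overlapped. For Orc6 both steps were positive. The 4 libraries with JQ1 lay above the 4 without it for Orc6 alone among the 41 genes, beside 10.2% of all tested genes, and below for Gins4 alone, beside 9.35%. At an unadjusted p under 0.05, 6 genes were higher, beside 16.7%, and 7 lower, beside 15%. The median over the 41 genes was 0.02, with 21 positive.

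The departure of the combination from the sum of the single treatments was tested as an interaction. edgeR's quasi-likelihood test called 0 of 41 genes in either direction, beside 0% of all tested genes. DESeq2 and limma voom called 0 of 41, beside 0.156% and 0% of all tested genes in either direction. Unadjusted p was under 0.05 for 8 genes below 0, beside 3.57% of all tested genes, and 1 above, beside 2.68%, the median log2 value was −0.95, and the smallest adjusted p was 0.745. Mcm2 departed by −2.41 ± 0.59 and Orc6 by 1.74 ± 0.57. Averaged over both backgrounds, the antibody left 0 of 41 called by edgeR, beside 0% of all tested genes higher and 0.0142% lower, with a median of −0.43 (−0.21 without JQ1 replicate 1 and −0.73 without combination replicate 1) and 10 genes lower and 0 higher at an unadjusted p under 0.05, beside 5.27% and 4.79% of all tested genes. DESeq2 called 2 lower, where it called 1.43% of all tested genes in either direction, and limma voom 0, where it called 0.0071%. The 4 libraries with the antibody did not overlap the 4 without it for any of the 41 genes, beside 1.36% of all tested genes higher and 1.25% lower. A difference in the response to JQ1 with and without the antibody did not pass the test, which does not show that the responses were alike.

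Levels of different genes were set side by side per kilobase of annotated exon. Since the kit captured coding regions and exon length includes untranslated parts, the order between genes is approximate. In vehicle, Mcm4 was highest at 19.3 ± 1.96 CPM per kilobase, followed by Gins4 at 9.84 ± 1.05, Rfc3 at 4.35 ± 0.103 and Mcm2 at 4.16 ± 0.00328, and Cdc6 was lowest at 0.126 ± 0.00759. Rfc3, Mcm2, Mcm3 and Mcm7, which follow one another, lay close together. In the combination, Gins4 led at 5.71 ± 0.569 CPM per kilobase, then Mcm4 at 5.06 ± 1.31 and Orc6 at 4.48 ± 1.03, which do not differ beyond their spread. Mcm2 ranked 23 in the combination and 4 in vehicle, Rrm2 ranked 36 and 11, and Orc6 ranked 3 and 17.

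Other genes of the pathway, not among the 42, were described in the same way. Of 35 other tested replication genes, 21 were negative and 14 positive in the combination against vehicle, with a median log2 fold change of −0.12 and 1 called. That gene was Hells, a chromatin remodeller of DNA methylation, with 3.79 and 3.13 CPM in the combination and 17.1 and 19.4 CPM in vehicle (−2.42 ± 0.44, adjusted p = 0.0261). Pole2, a subunit of the leading strand polymerase, held 3 counts in the combination and 100 in vehicle, and the vehicle level divided by the combination level was 9.22 (95% interval 3.07 to 45.5, adjusted p by edgeR 0.0529). Of 22 other nucleotide supply genes, 16 were negative, with a median of −0.50 and none called; the smallest adjusted p was 0.0523, for Atic of purine synthesis (−1.16 ± 0.30). For JQ1 over both backgrounds, edgeR called Pole2 lower (adjusted p = 0.0475) and Ctps, CTP synthase, fell by 0.84 (adjusted p = 0.0492), while Nasp, a histone chaperone, was at −0.90 ± 0.26 (adjusted p = 0.0576).

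Among regulators and other cell cycle genes, few single genes passed the test outside the replication-dependent histones. Of 21 E2F and pocket protein regulators 18 were negative in the combination against vehicle, with a median of −0.79 and none called; E2f1, an activator of these genes, had 0 and 0.330 CPM in the combination and 2.60 and 2.41 CPM in vehicle, and its vehicle level divided by its combination level was 10.5 (95% interval 2.81 to 88.4, adjusted p by edgeR 0.0503). For JQ1 over both backgrounds, Lin9 of the DREAM and MuvB complexes fell by 0.83 (adjusted p = 0.0484). The 20 mitosis genes summed to 17.7 and 44.0 CPM in the combination, 87.5 and 46.9 CPM with JQ1, 131.7 and 58.3 CPM with anti-PD-1, and 86.2 and 101.6 CPM in vehicle, with 14 of 17 tested genes negative in the combination against vehicle. Plk1, a mitotic kinase, was called lower by edgeR (adjusted p = 0.0309), with a vehicle level divided by the combination level of 12.8 (95% interval 4.30 to 62.9). The 13 replication-dependent histone genes, whose mRNA is made in S phase, summed to 273 ± 3.18 CPM in the combination, 449 ± 112 CPM with JQ1, 819 ± 35.4 CPM with anti-PD-1 and 942 ± 38.1 CPM in vehicle. Of these 13 genes, 12 were negative and 11 called lower in the combination against vehicle, beside 2.36% of all tested genes called lower. For JQ1 over both backgrounds, 12 were negative and 11 called lower, beside 4.05% of all tested genes. Of 7 tested genes known to respond to BET inhibitors, Mycn and Mycl, of the MYC family, were called in opposite directions over both backgrounds: Mycn fell by 2.76 (adjusted p = 0.0228) and Mycl rose by 1.47 (adjusted p = 0.0467). Brd2, a BET gene, fell by 0.82 (adjusted p = 0.0291). Hexim1, of the same list, was at −1.02 ± 0.32 and did not pass the edgeR test (adjusted p = 0.0722). Of the 7 genes, 2 were positive and 5 negative in that contrast, with a median of −0.21.

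Markers of other cell types also differed between the groups, some of them with the single treatments as well, and their part in these results was not tested. The 10 airway epithelium markers summed to 652.4 and 309.5 CPM in the combination, 486.5 and 174.3 CPM with JQ1, 138.8 and 59.2 CPM with anti-PD-1, and 45.9 and 20.4 CPM in vehicle, with none at 0 throughout any group. The 10 endothelium markers summed to 241.6 and 281.8 CPM in the combination, 217.5 and 199.7 CPM with JQ1, 194.3 and 195.6 CPM with anti-PD-1, and 111.5 and 161.5 CPM in vehicle, again with none at 0 throughout a group. The 10 fibroblast markers summed to 558.1 and 713.8 CPM in the combination, 932.4 and 865.1 CPM with JQ1, 1841 and 1233 CPM with anti-PD-1, and 1489 and 1287 CPM in vehicle, where Lum was at 0. That sum was mostly Col1a1, which fell to 250.4 and 255.8 CPM in the combination, against 1088 and 821 CPM in vehicle. Of 9 tested fibroblast markers, Dcn, Inmt and Pdgfra rose and Col1a1 fell, and the median log2 fold change was −0.18. T cell markers, 10 genes, summed to 1.26 and 1.98 CPM in the combination and 2.06 and 4.07 CPM in vehicle. Cd3d, Cd3g, Cd8a, Cd8b1 and Trac were at 0 in both combination libraries, and Cd3d and Cd3g in both vehicle libraries. Cd3d and Cd8b1 were at 0 in both JQ1 libraries, and Cd8b1 in both anti-PD-1 libraries. A count of 0 in combination replicate 1 allows up to 1.26 CPM per gene, so it cannot be read as absence. The 10 neutrophil markers summed to 12.2 and 3.63 CPM in the combination, 12.9 and 4.79 CPM with JQ1, 2.86 and 3.005 CPM with anti-PD-1, and 2.75 and 2.24 CPM in vehicle. Retnlg and Ngp were at 0 in both combination libraries, Ly6g and Camp in both JQ1 libraries, and Ly6g, Camp and Ngp in both anti-PD-1 libraries. In both vehicle libraries Retnlg, Ly6g, Camp and Ngp were at 0.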

How the data were processed

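RNA was measured in 8 libraries of lung tumour nodules. Per the labels' protocols, RNA from frozen tissue was made into libraries with a kit that captures coding regions by probes. DESeq2, featureCounts, STAR and bcl2fastq, with mm10 and GRCm38 as builds, come from the submitters' processing notes, which here carry no versions, annotation or strand setting. Counts in the authors' raw table are whole numbers per symbol. The deposited normalized table holds a signal: the counts divided by 1 factor per library, equal to the DESeq2 size factors, and between 99.908% and 100% of its values returned whole reads within 0.05 reads.

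The altered genes of the model are not reported here. Labels gave each library's treatment; replicates were numbered in accession order. The labels do not say which animals the libraries came from. In 3 groups 1 library was female and 1 male by Xist and Y-linked counts, so these came from different animals; both vehicle libraries were male, and their spread may be technical. Counts of any 2 libraries differed beyond sampling noise (chi-square per degree of freedom of at least 19.47).

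The counts were fitted in R 4.3.3 with edgeR 4.0.16 and its quasi-likelihood test (filterByExpr, TMM, robust glmQLFit, prior count 0.125), in 1 fit of 8 libraries with a mean per group and 4 residual degrees of freedom, for 8 contrasts. P-values were adjusted by Benjamini-Hochberg over 14085 genes for each contrast; a call is an adjusted p under 0.05. The script was tested on simulated data. CPM use TMM-scaled library sizes. SE is that of the log2 fold change. Ratios of sums with 1 to 3 counts carry exact 95% intervals, and these and the floor of 3 counts for a count of 0 cover counting error only. Ribosomal RNA is 358 symbols annotated as such or overlapping the ribosomal locus of chromosome 17 in GENCODE vM21 (GRCm38), which matched 48108 of 52459 symbols and gave exon lengths and 1-based coordinates.

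The genes, lists and tests were chosen with earlier results of these data known. Values in every library are given for genes called in any contrast, the 2 smallest p of each functional group in each of 2 contrasts (the combination against vehicle, and JQ1 over both backgrounds), and Pcna, Mcm2, Rrm2, Cdc6, Tyms and Tk1. Mcm3, Mcm7, Mcm10 and Dut were added after their values were seen. Alternatives were no filter, upper-quartile or RLE factors, DESeq2 1.42.0, limma 3.58.1 voom, only genes with a mean count of 50 or more, a sex term, ribosomal RNA share as a term or its genes removed, only the libraries compared, each library left out, and, added after seeing the data, the recovered reads.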

Additional observations from a re-analysis of the deposited data

How the results depend on the processing

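The log2 fold change of Mcm2 in the combination against vehicle was negative in all 19 alternatives, and that of Orc6 was positive in all 18 that tested it. Orc6 was not called there with a sex term, with ribosomal RNA share as a term or with only the libraries compared. With ribosomal RNA share as a term, 0 genes were called either way in the combination against vehicle or anti-PD-1 and for JQ1 over both backgrounds, and at most 3 of all tested genes were called in any contrast; Mcm2 was at −6.20 (adjusted p = 0.373) and Orc6 at 0.60 (0.935), and the medians were −1.39 for the combination against vehicle, 0.039 for JQ1 against vehicle, −1.66 for the combination against JQ1, −1.58 against anti-PD-1, −0.70 for JQ1 and −0.83 for anti-PD-1 over both backgrounds, and −1.67 for the interaction. That share differs between the groups, so the term and the treatment cannot be told apart. Without a filter on low counts, genes called lower numbered 9 in the combination against vehicle, 8 against JQ1 and 8 against anti-PD-1 (2 higher), 5 for JQ1 over both backgrounds (2 higher), 4 for anti-PD-1 over both and 4 in the interaction. Without it, 7.54%, 2.54%, 7.27%, 9.56%, 1.61% and 0.522% of all genes were called in these contrasts, in that order and in either direction. DESeq2 called 4 lower against vehicle, 5 against JQ1, 6 against anti-PD-1, 3 for JQ1 over both and 2 for anti-PD-1 over both, beside 11.7%, 2.9%, 11%, 15.1% and 1.43% of all genes in either direction. RLE factors gave 2 lower in the combination against vehicle and 2 against anti-PD-1, beside 5.2% and 4.43% of all genes in either direction. Removal of ribosomal RNA genes gave 2 lower against anti-PD-1, beside 4.24%. A mean count of at least 50, which drops Orc6, gave 0 higher against vehicle, against anti-PD-1 and for JQ1 over both, where 0 were lower and the median was −0.38. Of all genes in that fit, 9.25%, 7.64% and 13.4% were called in these contrasts, in either direction. limma voom called 0 lower against anti-PD-1 and for JQ1 over both, beside 3.63% and 9.73% of all genes in either direction. A sex term gave 0 higher against vehicle and 0 lower for JQ1 over both, beside 2.41% and 6.23% of all genes in either direction. Fitted with only the libraries compared, 0 genes were higher and 2 lower against vehicle, and 0 either way against anti-PD-1. Of all genes, 1.88% and 0.446% were called in these fits, in either direction. Summed CPM was 213 in the combination with upper-quartile factors, and 305 in the combination, 563 with JQ1, 510 with anti-PD-1 and 517 in vehicle with ribosomal RNA genes removed. The sums with ribosomal RNA genes removed are scaled to library sizes without those counts, so they are higher in every group by construction. The cause of the other changes was not tested.

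Leaving out 1 library at a time left a group with 1 library, assumed to vary like the others, so only effect sizes and sums are given here. Medians lay between −0.10 and 0.62 for JQ1 against vehicle, −0.40 and 0.18 for JQ1 over both, −1.26 and −0.61 for the combination against JQ1, −1.32 and −0.65 for the interaction, −0.83 and −0.59 for the combination against vehicle, −0.90 and −0.46 for the combination against anti-PD-1, −0.73 and −0.21 for anti-PD-1 over both, and −0.27 and 0.17, on both sides of 0, for anti-PD-1 against vehicle. The summed CPM of the combination lay between 209 and 218. The lowest medians with JQ1 came without JQ1 replicate 1. Of the called replication genes, neither Mcm2 nor Orc6 changed direction in the contrasts where it was called. Some called genes of the other lists did so with ribosomal RNA share as a term. For JQ1 over both backgrounds, Mycn was then at 0.88 and Mycl at −0.43. In the combination against vehicle, Nkx2-1 was then at 0.38 and Dcn at −0.43. No paired analysis was possible because the labels carry no replicate numbers that tie libraries across groups. Depth limits genes of a few counts: 3 counts are worth 1.26 CPM in combination replicate 1 and 0.172 CPM in vehicle replicate 2.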
